A study of Mus musculus with 4 samples.

Results

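The SOCS family was followed in mouse lineage-negative bone marrow cells, that is marrow cells depleted of cells with markers of mature blood lineages. Its 8 genes, Socs1 to Socs7 and Cish, were taken by name, and every probe that the platform annotation lists under one of those symbols was used. This gave 8 of the 17034 genes with a probe and 10 of the 26512 probes on the array, with 1 probe each for Cish, Socs1, Socs2, Socs3, Socs4 and Socs5 and a pair each for Socs6 and Socs7. Of these, 9 were detected on at least 2 of the 4 arrays and were tested, and all 8 genes had a tested probe. Both groups are labelled WT (wild type) and come from bone marrow. The WT FLT3-ITD group (2 arrays) had 48 h of signalling by FLT3-ITD, a form of the receptor tyrosine kinase FLT3 with an internal tandem duplication that occurs in acute myeloid leukaemia. The WT pMIG group (2 arrays) received the empty vector pMIG. The strain and age of the animals, whether replicates came from different animals, and how cells with the vector were selected are not stated in the labels, so the p-values measure the spread between these arrays, which may be technical.

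SOCS proteins are inducible brakes on cytokine receptors. Cytokine binding activates Janus kinases, these phosphorylate STAT transcription factors, and STATs in turn raise transcription of SOCS genes, whose products act back on the receptor complex. Each family member has an SH2 domain, which binds phosphorylated tyrosine, and a SOCS box, which recruits a ubiquitin ligase. Socs1 and Socs3 also carry a short region that blocks the Janus kinase directly. Cish and Socs2 are classical targets of STAT5, which FLT3-ITD is known to activate, Socs3 is a classical target of STAT3, and Socs1 is induced by interferons.

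The promoter windows of the family members in the RefSeq table (GRCm38.p6, 250 bases before to 50 after a start site) are shown because they hold the letters that STAT proteins and interferon factors are known to prefer, in 3 genes that respond to different cytokines. Of the 8 genes, 4 had a window (Cish, Socs1, Socs3 and Socs4). Capitals mark TTCNNNGAA in Cish and Socs3, and in Socs1 a pair of overlapping matches to GAAA and GAAA separated by 2 bases of any kind. Both strands were searched, and TTCNNNGAA reads the same on each.
Cish, chr9:107296409-107296708, plus strand: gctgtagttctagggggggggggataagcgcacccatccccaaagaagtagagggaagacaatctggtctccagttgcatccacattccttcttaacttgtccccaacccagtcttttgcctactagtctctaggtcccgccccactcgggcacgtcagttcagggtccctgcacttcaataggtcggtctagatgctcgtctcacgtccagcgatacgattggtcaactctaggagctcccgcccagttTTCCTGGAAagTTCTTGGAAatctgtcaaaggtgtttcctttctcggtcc
Socs3, chr11:117969317-117969616, minus strand: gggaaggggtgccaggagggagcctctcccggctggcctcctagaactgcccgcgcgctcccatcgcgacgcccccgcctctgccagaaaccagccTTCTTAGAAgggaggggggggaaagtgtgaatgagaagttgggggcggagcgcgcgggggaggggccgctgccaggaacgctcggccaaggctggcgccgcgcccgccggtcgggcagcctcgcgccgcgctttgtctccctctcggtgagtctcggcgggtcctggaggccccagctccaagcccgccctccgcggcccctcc
Socs1, chr16:10785487-10785786, minus strand: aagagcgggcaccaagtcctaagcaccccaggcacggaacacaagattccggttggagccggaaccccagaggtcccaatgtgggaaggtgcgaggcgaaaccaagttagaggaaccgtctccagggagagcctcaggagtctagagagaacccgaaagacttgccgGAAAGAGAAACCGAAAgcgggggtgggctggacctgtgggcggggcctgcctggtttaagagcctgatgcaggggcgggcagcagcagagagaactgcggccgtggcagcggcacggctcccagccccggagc

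Counted from the start site, the Cish matches lay at bases 1 to 9 and 12 to 20, as TTCCTGGAA and TTCTTGGAA. The Socs3 match, TTCTTAGAA, lay at bases -154 to -146, counted from the start site of the RefSeq window, which lies inside the gene span given for Socs3 and not at its end. Of all 32851 promoter windows, 8.3% held TTCNNNGAA and 0.457% held it at least 2 times. The Socs1 pair spanned bases -83 to -68, and 3.44% of windows held such a match. The variant with 4 unspecified bases between TTC and GAA (6.95% of windows) and TATAAA (13.6%) were in none of the 4 windows, and no searched motif was in that of Socs4. These matches are descriptions of the letters and say nothing of binding in these cells.

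Within the family, 3 members stood out. The probes of Socs3, Socs2 and Cish, which were bright on every array, read higher on both FLT3-ITD arrays than on both pMIG arrays, by 1.96-fold, 1.67-fold and 1.32-fold. Those of Socs1 and Socs6 had positive mean differences with wide spread between replicates, and those of Socs4, Socs5 and Socs7 lay within that spread. Differences were tested in limma with Benjamini-Hochberg adjustment over all 14178 detected probes, in 2 forms. The flat model draws each probe's spread toward 1 value for all probes. The trend model, an alternative, draws it toward the spread usual at that signal level. In the flat model 0 of 9 SOCS probes passed an adjusted p of 0.05 (3 had an unadjusted p under 0.05), where 0.106% of all detected probes passed, 15 higher and 0 lower, and 2369 had an unadjusted p under 0.05. Arrays scaled to a common median in place of quantile normalization gave 83 higher and 14 lower. In the trend model 3 of 9 SOCS probes passed, all higher in FLT3-ITD, where 7.92% of all detected probes passed and 4.1% passed and were higher. Without overlap between the groups, 4 of the 9 probes were higher, against 23.8% of all detected probes, and 0 were lower, against 25.6%. With 2 arrays a group, an exact permutation test cannot go below p = 0.333.

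**Figure D1:**
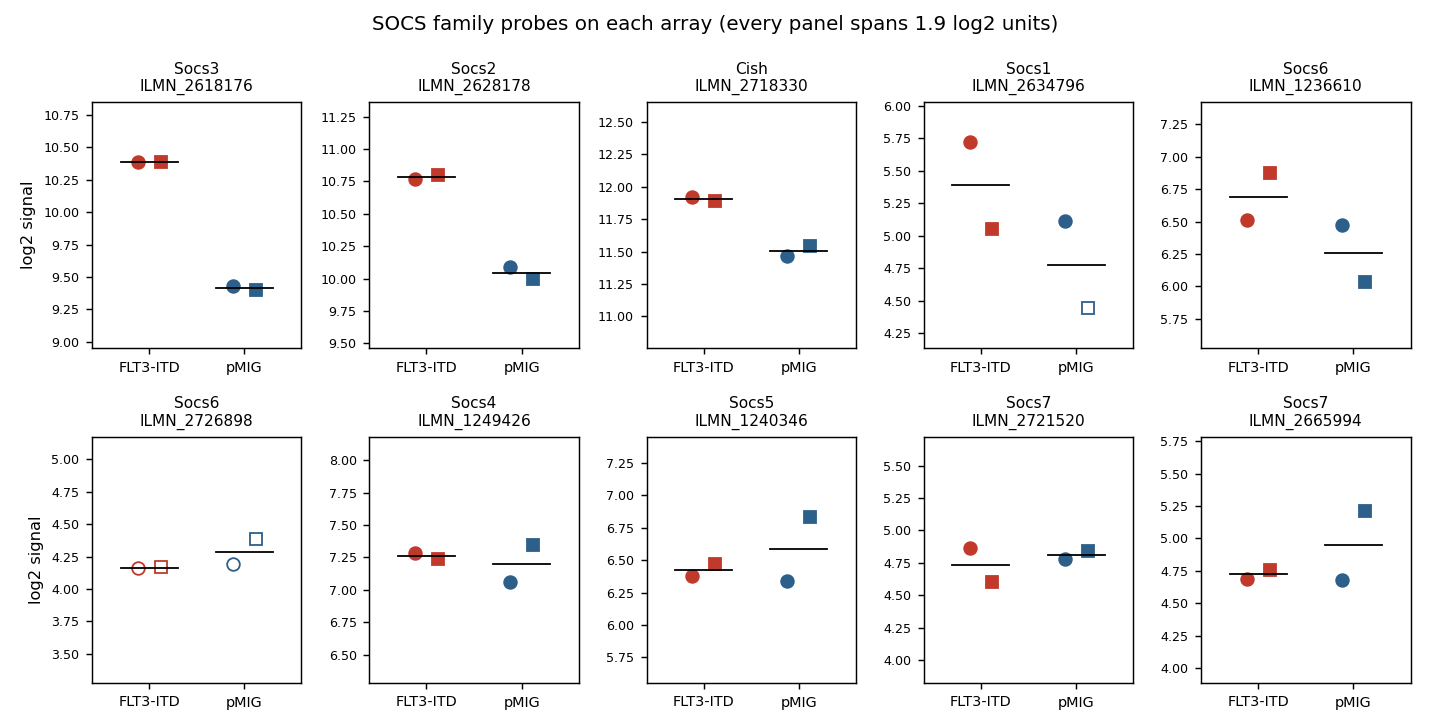
Log2 signal (vertical axis, background-corrected and quantile-normalized) of the 10 SOCS family probes on each array, circles for replicate 1 and squares for replicate 2, with open symbols where the probe was not detected and lines at the group means (n = 2). The panels of Socs3, Socs2 and Cish show replicates close together and groups apart, from 10.39 against 9.42 for Socs3 to 11.91 against 11.50 for Cish.

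Socs3, whose protein restrains receptors that signal through gp130 and the receptor for granulocyte colony-stimulating factor, showed the largest difference of the family. The gene lies at chr11:117966079-117970336 and was read by probe ILMN_2618176. FLT3-ITD replicates 1 and 2 had deposited intensities of 1340.4 and 1455.7, against 849.6 and 702.1 in pMIG. After background correction and normalization the log2 signal read 10.38 and 10.39 in FLT3-ITD, against 9.43 and 9.40. Both FLT3-ITD arrays were therefore high and both pMIG arrays low, and the closest arrays of different groups were 0.95 apart while replicates differed by at most 0.03. The mean difference was 0.97 (SE 0.11, adjusted p = 0.0859 in the flat model), or 0.97 with a 95% interval of 0.79 to 1.15 in the trend model (adjusted p = 2.26e-07). This difference exceeded those of 99.0% of the detected probes. Kept to probes detected on all 4 arrays, the flat model gave an adjusted p of 0.0409.

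Socs2, a STAT5 target best known for limiting growth hormone signalling, was next. The gene lies at chr10:95383903-95417321 and was read by probe ILMN_2628178. FLT3-ITD intensities of 1715.1 and 1909.2 stood against 1298.9 and 1035.3 in pMIG, and the log2 signal was 10.77 and 10.80 against 10.09 and 10.00. The groups did not overlap, with at least 0.68 between arrays of different groups and at most 0.09 between replicates. The mean difference was 0.74 (SE 0.12, adjusted p = 0.135 in the flat model), and the trend model gave an interval of 0.57 to 0.91 (adjusted p = 4.96e-06). It exceeded the differences of 97.9% of detected probes.

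Cish, the founding member of the family, which binds receptors that signal through STAT5 such as those for erythropoietin and interleukin-2, differed by less. The gene lies at chr9:107296659-107302784, its start being that of the promoter window printed above, and was read by probe ILMN_2718330. As deposited, the FLT3-ITD arrays read 3735.7 and 3908.4 and the pMIG arrays 3203.9 and 2859.6. Log2 signals were 11.92 and 11.89 against 11.47 and 11.54, so that both FLT3-ITD arrays again lay above both pMIG arrays. The mean difference was 0.40 (SE 0.11, adjusted p = 0.218 in the flat model), with an interval of 0.25 to 0.55 and an adjusted p of 0.00128 in the trend model. Its percentile among all differences was 90.5.

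The 3 calls of the trend model were the same 3 probes under each of the 13 alternatives to it. These were combined with the trend after the data were seen and included leaving out each array in turn. The highest adjusted p over them was 2.74e-04 for Socs3, 0.00158 for Socs2 and 0.0352 for Cish. Over 15 alternatives to the flat model, the trend with and without a robust fit among them, adjusted p-values ran from 4.9e-08 to 0.433 for Socs3, from 1.84e-06 to 0.433 for Socs2 and from 9.57e-04 to 0.468 for Cish. These settings moved the log2 difference of Socs3 between 0.89 and 0.99, that of Socs2 between 0.70 and 0.79 and that of Cish between 0.37 and 0.44. The sizes varied little, and the call changed with the model of the spread, with the background correction and, for Socs3, with the filter on detection.

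**Figure D2:**
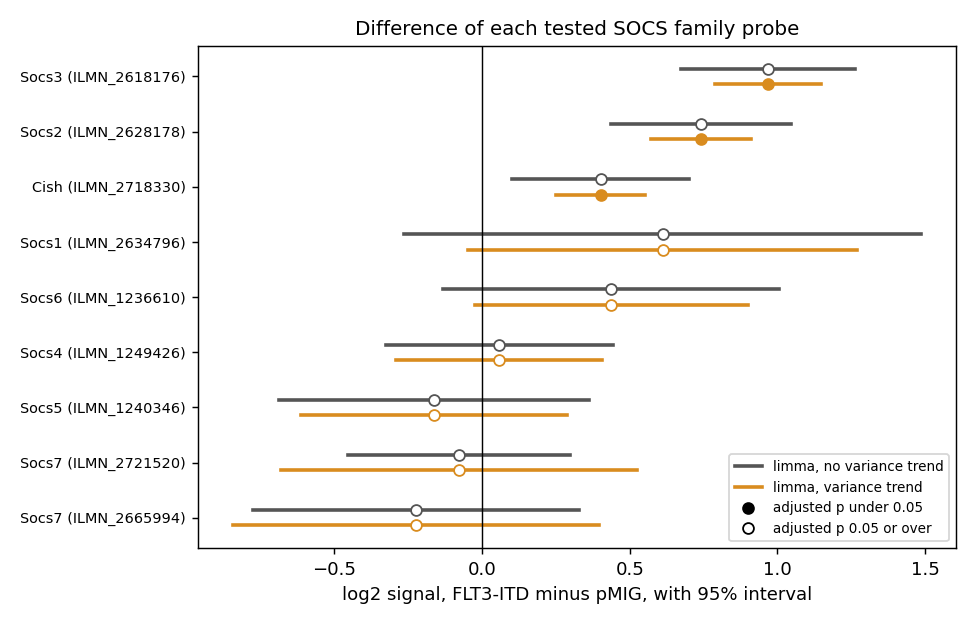
Log2 difference (FLT3-ITD minus pMIG, horizontal axis) of the 9 tested SOCS family probes with 95% intervals from limma without (grey) and with (orange) a variance trend, filled where the adjusted p was under 0.05. Only the trend intervals of Socs3 (0.79 to 1.15), Socs2 (0.57 to 0.91) and Cish (0.25 to 0.55) belong to filled points.

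Socs1, the interferon-responsive member and a direct inhibitor of Janus kinases, was near background. The gene lies at chr16:10783808-10785536 and was read by probe ILMN_2634796. It was detected on both FLT3-ITD arrays and on 1 of 2 pMIG arrays, with deposited intensities of 128.9 and 114.5 against 118.9 and 99.5. Log2 signals of 5.72 and 5.05 in FLT3-ITD faced 5.12 and 4.44 in pMIG, so the groups overlapped: FLT3-ITD replicate 2 lay below pMIG replicate 1. The mean difference of 0.61 (SE 0.33) did not pass in either model (adjusted p = 0.425 and 0.275), and the interval in the trend model, -0.05 to 1.27, held values above the difference of Socs3. Without background correction the difference was 0.19. Leaving out 1 array gave 0.27 without pMIG replicate 2, 0.28 without FLT3-ITD replicate 1, and 0.95 without either of the others.

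Socs6, whose protein binds the receptor tyrosine kinase KIT, had 1 detected and 1 undetected probe. Probe ILMN_1236610 was detected on all arrays at 164.8 and 201.8 in FLT3-ITD, against 181.1 and 141.4. Its log2 signal was 6.52 and 6.87 against 6.47 and 6.04, groups that nearly touched, with 0.04 between the closest arrays and up to 0.44 between replicates. The difference of 0.44 (SE 0.22) did not pass (adjusted p = 0.384 in the flat model and 0.263 in the trend model, interval -0.02 to 0.90). It was 0.23 without background correction. Leaving out 1 array gave 0.22 without pMIG replicate 2, 0.26 without FLT3-ITD replicate 2, 0.62 without FLT3-ITD replicate 1 and 0.66 without pMIG replicate 1. Probe ILMN_2726898 was not detected on any array, with intensities of 87.8 to 98.2, and was not tested.

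**Figure D3:**
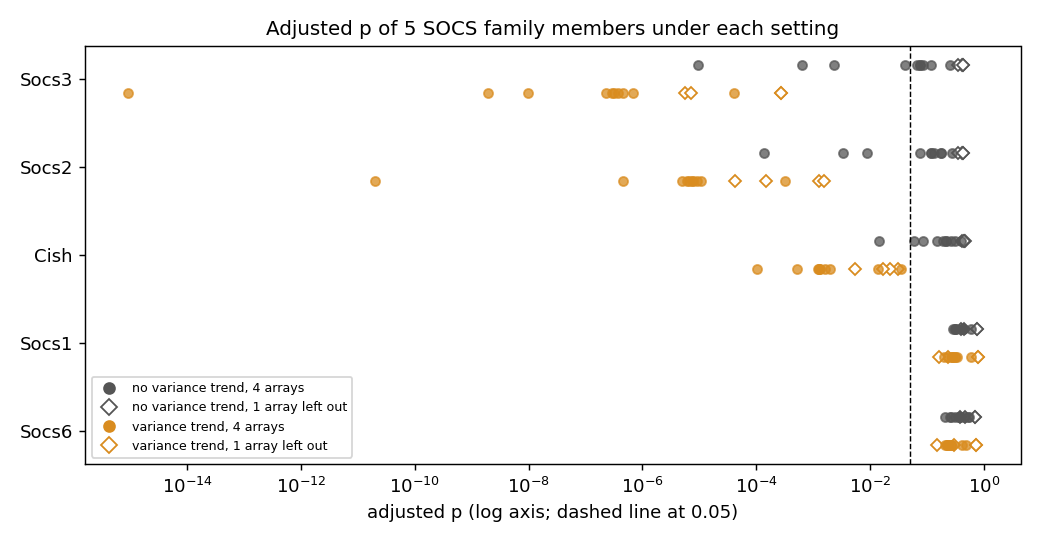
Adjusted p (log axis, dashed line at 0.05) of 5 SOCS family members in limma without (grey) and with (orange) a variance trend, filled circles for settings that use all 4 arrays and open diamonds for those with 1 array left out. All orange points of Socs3, Socs2 and Cish lie below 0.05, and all points of Socs1 and Socs6 lie above it.

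Socs4 and Socs5, a pair of long-tailed members linked to the receptor for epidermal growth factor, gave no call. Socs4 (probe ILMN_1249426) read 225.1 and 235.6 as deposited in FLT3-ITD, against 230.3 and 230.6, with log2 signals of 7.28 and 7.24 against 7.06 and 7.35. The FLT3-ITD values lay between those of the pMIG arrays. The difference was 0.06, with an interval of -0.29 to 0.41 in the trend model (adjusted p = 0.891). Socs5 (probe ILMN_1240346) read 6.38 and 6.47 against 6.34 and 6.83, again with overlap. Its difference was -0.16 (interval -0.61 to 0.29, adjusted p = 0.742).

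Socs7, a member linked to insulin signalling, was close to background on both probes. Intensities were 103.9 to 108.1 in FLT3-ITD and 107.4 to 115.2 in pMIG. ILMN_2665994 differed by -0.22 and ILMN_2721520 by -0.08, with overlapping groups on each (trend model adjusted p = 0.741 and 0.921). In the trend model the interval was -0.84 to 0.40 for the first and -0.68 to 0.53 for the second.

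**Figure D4:**
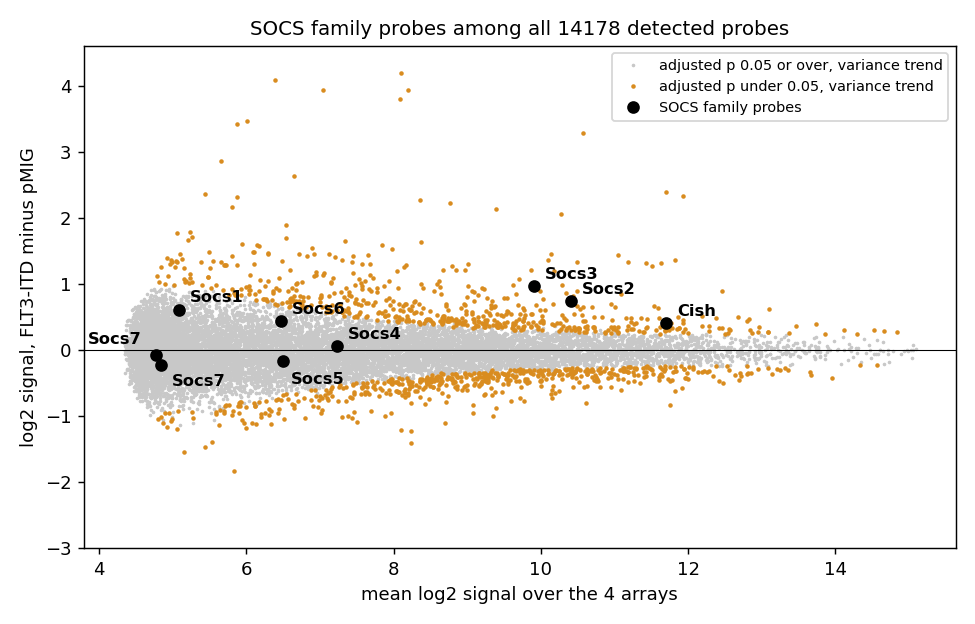
Log2 difference (FLT3-ITD minus pMIG, vertical axis) against mean log2 signal over the 4 arrays for all 14178 detected probes, orange where the adjusted p was under 0.05 in the trend model, with SOCS family probes in black. Socs3, Socs2 and Cish lie above the grey band at high signal, where spread was small, and Socs1, with a difference of 0.61, lies inside the wide band at low signal.

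The Janus kinases and STATs, which act between the receptors and the SOCS genes, were read by the brightest detected probe of each gene, as were the other lists. Of these, 9 genes were tested, and Stat5b was not detected. In the flat model 0 of the 9 passed (0.111% of all genes tested passed). In the trend model 5 passed and were higher, where 4.31% of all genes passed and were higher, and 0 were lower, where 4.37% were. The median difference was 0.38, against -0.02 over all genes tested and 0.42 over the 8 SOCS genes. The lists here were chosen with earlier results of these data known, so these counts are descriptions.

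Jak2, the kinase used by many haematopoietic receptors and a target of Socs1 and Socs3, read 9.68 and 9.74 in FLT3-ITD, against 9.02 and 8.93. The groups did not overlap, and the difference was 0.74 (adjusted p = 0.138 in the flat model and 3.38e-05 in the trend model). A second Jak2 probe differed by 0.75 and passed in the trend model too (adjusted p = 0.00397), while the third was not detected. Jak3, the partner of the common gamma chain, differed by 0.81 (adjusted p = 0.0131 in the trend model), and by 0.45 on a second probe that did not pass (adjusted p = 0.209). Jak1 (0.38) did not pass, nor did Tyk2, at -0.14 on its brightest probe and 0.53 and 0.10 on the others.

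Among the STATs, Stat2, which works with Irf9 in the interferon response, differed by 0.77 (adjusted p = 0.0366 in the trend model). Stat5a differed by 0.44 on its brightest probe (adjusted p = 0.0169), but by -0.18 on its other probe, which did not pass (adjusted p = 0.703). Stat4 differed by 0.35 (adjusted p = 0.0441), with other probes at -0.43 and 0.09. Stat3 differed by 0.10 on its brightest probe without passing (adjusted p = 0.558), and by 0.55 and 0.38 on the others, of which the first passed in the trend model (adjusted p = 4.95e-04). Stat6 differed by 0.05. Where the probes of a gene lie in its transcripts is not known here, so the disagreements between probes were not tested further.

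**Figure D5:**
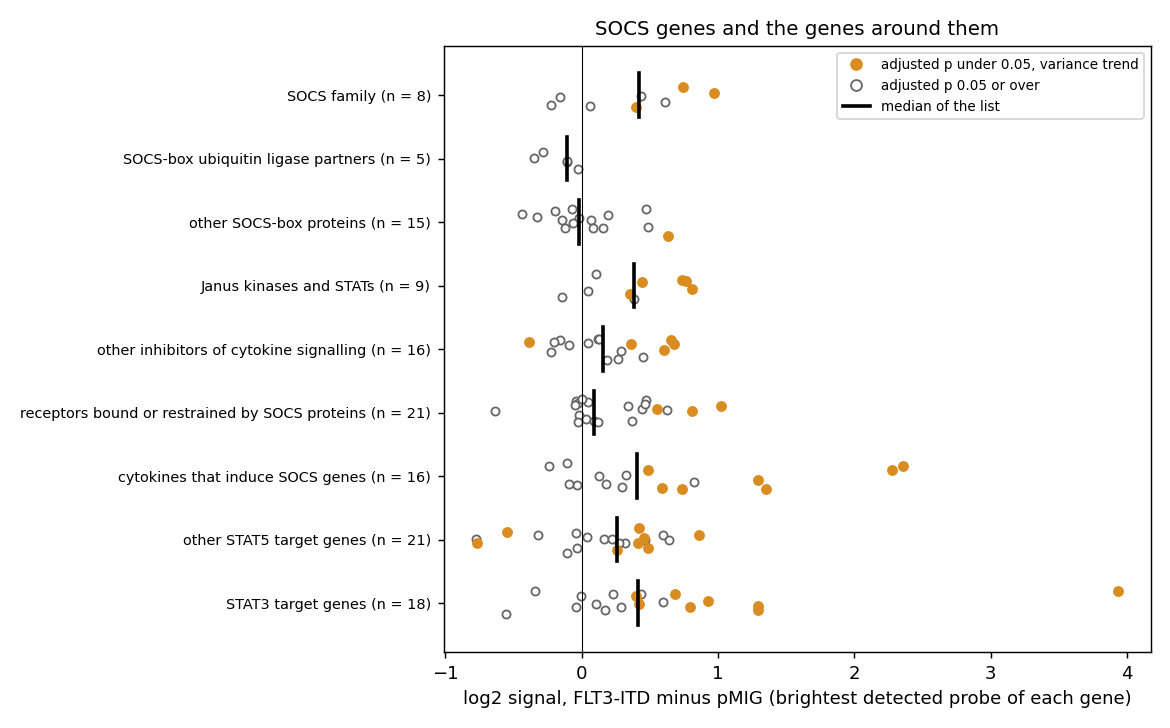
Log2 difference (FLT3-ITD minus pMIG, horizontal axis) of each tested gene in 9 lists, read by its brightest detected probe, filled orange where the adjusted p was under 0.05 in the trend model, with a black bar at the median of each list. The median of the SOCS family was 0.42 and that of its ubiquitin ligase partners -0.11, and every gene of the latter list is an open point.

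The SOCS box works through a ubiquitin ligase of elongins and cullins. Of its 5 tested partner genes 0 passed in either model. Eloc, which encodes elongin C, differed by -0.29 (adjusted p = 0.344 in the flat model and 0.21 in the trend model), Cul2 by -0.35 (0.12 on its other probe), Cul5 by -0.11 and Rbx1 by -0.11. Of 15 other genes for proteins with a SOCS box, 1 was higher and 0 lower in the trend model, a share near the 4.31% of all genes, and 0 passed in the flat model. The gene was Asb2, an ankyrin-repeat member known in myeloid differentiation, at 10.20 and 9.94 against 9.33 and 9.55, a difference of 0.63 (adjusted p = 4.66e-04 in the trend model). Spsb1 (0.47), Asb7 (0.49) and Vhl (-0.44) did not pass.

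Of 16 other inhibitors of cytokine signalling that were tested, 4 were higher and 1 lower in the trend model. Over all genes these shares were 4.31% and 4.37%, so the 1 lower gene was near its share. In the flat model 0 passed. Usp18, which restrains the interferon receptor, read 10.05 and 10.01 against 9.36 and 9.35, a difference of 0.68 (adjusted p = 3.77e-05), and 0.73 on its second probe (adjusted p = 0.0282). Dok2, an adaptor that dampens tyrosine kinase signals, differed by 0.60 (adjusted p = 1.02e-04), and Pias4, an inhibitor of STATs, by 0.66 (adjusted p = 0.0228). The fourth was Ptpn6, the phosphatase SHP-1, named after its value of 0.36 was seen, with -0.01 on its other probe. Pias1, another inhibitor of STATs, was lower by the trend model at -0.39 (adjusted p = 0.0161).

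Among receptors that SOCS proteins bind or restrain, 3 of 21 tested were higher and 0 lower in the trend model. Over all genes 4.31% were higher and 4.37% lower. In the flat model 0 passed. Csf2rb, the common beta chain of the receptors for interleukin-3, interleukin-5 and granulocyte-macrophage colony-stimulating factor, differed by 1.02 (adjusted p = 4.84e-04), with other probes at 1.42 (adjusted p = 0.00154) and 0.29 (adjusted p = 0.691). Csf2rb2, its closely similar copy, differed by 0.81 (adjusted p = 0.00359). Probes of such copies may read both genes, so the sizes are uncertain and the calls may not be separate. Il10ra differed by 0.55 (adjusted p = 0.0292), and Epor, a receptor that Cish binds, by -0.64 without passing (adjusted p = 0.167). Csf3r, Il6ra and Il6st, receptors that Socs3 restrains or their partners, differed by -0.01, 0.05 and 0.03. These last genes were named after their values were seen. Flt3 was not detected, and Kit had no probe under its name.

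Of the cytokines known to induce SOCS genes, 16 were tested (median 0.41). In the trend model 7 were higher and 0 lower, where 4.31% and 4.37% of all genes were. Of the 7, Ifng and Il10 passed the detection filter only through the FLT3-ITD arrays, so their calls are no support for a difference. In the flat model 1 passed, where 0.111% of all genes did. This was Il1b, which differed by 2.27 (adjusted p = 0.0139 in the flat model). Ifng and Il10, the first a strong inducer of Socs1 and the second of Socs3, were below detection on both pMIG arrays. Set against a detection floor, Ifng with FLT3-ITD stood 4.83-fold higher on its brightest probe and 2.96-fold higher on its second. Il10 stood 2.43-fold higher. Their p-values are not given, as these probes passed the detection filter only through the FLT3-ITD arrays. Each ratio sets the FLT3-ITD mean against a floor averaged over the pMIG arrays. The floor is the smallest signal of any detected probe there, or the gene's own signal where that is larger. Probes that were not detected could lie above the smallest detected signal, as the second Ifng probe did on pMIG replicate 1 (4.61). The ratios are therefore approximate and are not strict lower bounds. Il1a, detected on 1 of 2 pMIG arrays, differed by 1.35 (adjusted p = 0.0045 in the trend model).

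Targets of the STATs other than SOCS genes were set beside the family. Of 21 further STAT5 targets, 6 were higher and 2 lower in the trend model (median 0.26), where 4.31% and 4.37% of all genes were. The higher ones were led by Ccnd1, a G1 cyclin, at 0.86 (adjusted p = 6.26e-07). Osm, which encodes oncostatin M, followed at 0.49 (adjusted p = 1.84e-04, with 0.17 on its other probe). The 2 that fell were Ramp1 at -0.77 (adjusted p = 3.18e-05) and the transcriptional repressor gene Gfi1 at -0.55 (adjusted p = 3.08e-04). Of 18 STAT3 targets, 8 were higher and 0 lower (median 0.41), against the same shares of all genes. The 8 include Il10, which passed the detection filter only through the FLT3-ITD arrays. Among the higher ones were Timp1 at 3.94, Bcl3 at 1.29, Mmp9 at 0.92 and Junb at 0.79. In the flat model only Timp1 of these passed (adjusted p = 0.00831). Some genes stand in more than 1 list, among them Osm, Il10 and Stat3, so the lists are not separate evidence.

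The genes whose pattern over the 4 arrays was most like those of Socs2, Socs3, Cish and Socs6 were found by the root mean square distance of log2 values after each probe's mean was subtracted, among 9947 other genes. For Socs2 the nearest was Jak2 (distance 0.013), followed by Col4a1 and Ifne. For Socs3 these were Sirpb1a (0.032), Vpreb1 and Aif1, for Cish Adora3 (0.0072), Slc24a3 and Ddah2, and for Socs6 Zmat2 (0.011), Plekhf1 and Tnfrsf4. With 4 arrays many patterns coincide: 552 genes lay within 0.1 of Cish, 89 of Socs2, 61 of Socs6 and 29 of Socs3. The lists of neighbours are therefore a description of these arrays.

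Several lists of blood cell marker genes differed between the groups in summed signal. The summed intensities were background-corrected but not normalized between arrays, so differences in array brightness enter them. Their counts of higher and lower genes are from the trend model, where 4.31% of all genes were higher and 4.37% lower. The 6 progenitor markers with a probe, among them Cd34, Myb and Gata2, were detected, with 0 higher and 2 lower in the trend model. Their summed background-corrected intensity overlapped between the groups, at 2808.5 and 3113 in FLT3-ITD against 3521.6 and 2994.5 in pMIG. On normalized values 3 of the 6 were lower without overlap between the groups and 0 were higher (median difference -0.38). Of all 9948 genes tested, 2666 were lower and 2363 higher without overlap. Kit and Ly6a had no probe under their names. The summed background-corrected intensity of the 8 dendritic markers was 12154.4 and 13340.8 in FLT3-ITD against 5792.1 and 5185.9 in pMIG, with 4 of 8 higher. These 4 were the MHC class II antigen presentation genes H2-Ab1 (1.27), H2-Aa (0.98), H2-Eb1 (1.33) and Cd74 (1.32). The rest of the list, Itgax (-0.08), Siglech (0.17), Cd209a (0.01) and Ccr7 (-0.27), did not pass. The summed intensity of the 6 B cell markers was 1255.3 and 1442.4 against 792.5 and 659.1, with 3 of 4 tested higher. Neutrophil markers, 8 of 8 detected, summed to 107031 and 111058 against 101874 and 96108.9 (2 higher, 1 lower). Monocyte markers summed to 2045.1 and 2289.4 against 1902.9 and 1703.8 (3 of 7 tested higher). Erythroid markers summed to 980.4 and 1145.0 against 761.7 and 689.2 (2 of 5 tested higher). The higher erythroid genes were the globins Hba-a1 (1.29) and Hbb-b1 (0.37), and Slc4a1 (0.44) did not pass. Klf1 (-0.36) and Epor (-0.64) were lower on both FLT3-ITD arrays than on both pMIG arrays without passing, and Alas2 was not tested. Mast cell and basophil markers summed to 12887.5 and 12858.7 against 17981.9 and 14740.1 (5 of 8 lower), and megakaryocyte markers to 1630.0 and 2046.4 against 2972.6 and 2269.8 (4 of 6 lower). T cell and NK cell sums overlapped between the groups. Of 2 tested T cell markers 0 passed, and Cd4 and Cd8a were not detected on any array. Of 3 tested NK cell markers 1 was higher in the trend model, Klrd1 (1.89, adjusted p = 3.90e-06), and 0 were lower. Klrd1 and the dendritic and erythroid genes above were named after their values were seen. The part of these shifts in the SOCS differences was not tested. In bulk RNA, more cells of a type and more RNA per cell cannot be told apart.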

How the data were processed

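Per the labels' protocols, RNA was prepared with a microprep kit, labelled as biotinylated cRNA and hybridised to Illumina arrays. The authors deposited non-normalized intensities with a detection p-value for each probe and, in a second table, processed log2 values whose making is not stated. The 4 columns of those log2 values had medians of 4.79 to 4.80, and they served as an alternative. The detection p-value did not always fall with intensity. On FLT3-ITD replicate 1 it was 5.88e-18 for Socs3 at 1340.4 and 3.51e-14 for Socs2 at 1715.1. The background step assumes that it falls.

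Intensities were corrected with limma 3.58.1 (R 4.3.3, statmod 1.5.0), by normexp with an offset of 16 and background moments estimated through the detection p-value, then taken to log2 and quantile-normalized. Probes with a detection p under 0.05 on at least 2 arrays were kept (14178). All of them were fitted with lmFit and eBayes, two-sided, without a variance trend, with Benjamini-Hochberg adjustment at 0.05. The trend model was an alternative, and settings combined with it were added after the data were seen. The fit was tested on simulated log2 values whose spread depended only on signal level. Background correction, normalization and the detection filter were not tested in this way. Symbols came from the platform annotation, matched through gene identifiers to RefSeq (0 changed). Detected probes numbered 13646 to 14176 an array, and the number of arrays limits precision. Across probes, r was 0.991 and 0.990 between replicates and 0.983 to 0.985 between groups.

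Members, lists and tests were chosen with earlier results of these data known. Named genes were all family members, all Janus kinases and STATs, up to 4 genes of each other list with the smallest adjusted p, and the 3 nearest patterns. 1 list is not reported here. Same-numbered arrays did not deviate together (r = -0.01), so the numbers were not taken as pairs.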

Additional observations from a re-analysis of the deposited data

How the results depend on the processing

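Over all probes, the flat model called 15. The count was 963 without background correction, 408 with an offset of 50, 531 with normexp that ignores the detection p, 97 with median scaling, 45 with the authors' log2 values, 85 for probes detected on all 4 arrays, 1123 with a variance trend, 1183 with a trend and robust fit, and 0 with any 1 array left out. With the replicate number as a block it was 7, and no SOCS probe was called. Of SOCS probes the flat model called 0, against 3 without background correction, 2 with an offset of 50, 2 with normexp that ignores the detection p, 1 for probes detected on all 4 arrays, and 3 with a trend, with or without a robust fit. The cause was not tested. With the trend, 3 SOCS probes were called under all 13 alternatives, while the count over all probes was 652 with median scaling, 578 with no filter and 463 to 832 with 1 array left out. The signs of the weakest differences were not stable. With 1 array left out, Socs4 ran from -0.084 (without pMIG replicate 1) to 0.20, Socs5 from -0.41 to 0.087 (without pMIG replicate 2), and the Socs7 probes from -0.49 to 0.045 (ILMN_2665994, without pMIG replicate 2) and from -0.21 to 0.054 (ILMN_2721520, without FLT3-ITD replicate 2). No other SOCS probe changed sign in any setting, and no setting called Socs1 or Socs6. A lone array of a group was assumed to vary like the other group. Dim probes limit what can be seen of Socs1 and Socs7.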
